A study of Homo sapiens with 24 samples.

Results

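The genes described here are 10 genes of the bone morphogenetic protein (BMP) pathway and its response in glioblastoma cell lines: ID1, ID2, ID3, ID4, SMAD6, SMAD9, BAMBI, ENG, GREM1, and BMP4. They were found by symbol among the 43037 genes of the deposited table, and all 10 have a row. The 24 libraries were made by CAGE-Seq, in which the capped 5′ end of each transcript is sequenced, from the established glioblastoma lines T98G, DBTRG-05MG, U251MG, and U87MG. All were present as a “Vec” variant, transduced with the control lentivirus Puro-Blank, and a “WWOX” variant, transduced with a lentivirus carrying the tumor suppressor WWOX under the CMV promoter, with 3 libraries in each of the 8 groups. Levels are given as CPM, tags scaled to a total of 1000000 per library. All groups had been transduced at a multiplicity of infection of 1.5 and selected with 1 µg/mL puromycin, and all were grown with 10% fetal bovine serum. T98G was kept in MEM, U87MG and U251MG in EMEM, and DBTRG-05MG in RPMI, so line and medium cannot be told apart for T98G and DBTRG-05MG. Each variant of a line is 1 transduced population with its own puromycin clone selection, and the number of clones in it is not given in the sources used here, so the effect of WWOX cannot be told apart from other differences between those 2 cell populations. The study's methods call the 3 libraries of a group biological triplicates, the labels do not say what was kept separate, and the p-values measure only the spread between these libraries.

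BMP ligands such as BMP4 bind a complex of type I and type II receptors, which phosphorylates SMAD1, SMAD5, and SMAD9. With SMAD4 these enter the nucleus and raise transcription of the ID genes, whose proteins bind basic helix-loop-helix (bHLH) factors and keep them from DNA. The response limits itself: SMAD6 is an inhibitory SMAD induced by BMP, BAMBI is a pseudoreceptor without a kinase domain, and GREM1 is a secreted protein that traps BMP ligands. ENG (endoglin) is a co-receptor best known from endothelial cells. In glioblastoma, BMP ligands are known for pushing stem-like cells toward an astrocyte fate, and ID proteins for keeping cells immature.

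The BMP response element joins a SMAD1/SMAD5 site to a SMAD4 site, and it is shown here because the ID genes are the classical genes that carry it. The search used GGCGNC or GACGNC, then any 5 bases, then GTCT, on either strand of the 2000 bases before each start given by RefSeq (hg38). Among 35116 such windows of all genes, 1.25% hold this motif. Among the 10 genes, ID1 and ID3 hold it, once each, and the windows of the other 8 do not. In ID1 the element begins 911 bases before the RefSeq start, and in ID3 it begins 506 bases before it. Each stretch is written 5′ to 3′ on the strand of the gene, with the element in capitals and 20 bases on either side, at chr20:31604358-31604412 (plus strand) for ID1 and chr1:23559973-23560027 (minus strand) for ID3. A match is a description of letters and not of bound sites.
ID1: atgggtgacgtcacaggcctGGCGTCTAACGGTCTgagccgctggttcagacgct
ID3: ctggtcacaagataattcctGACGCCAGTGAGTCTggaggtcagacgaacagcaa

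CAGE tags arise at transcript starts, so the 60 bases just before the RefSeq start of each ID gene are shown as well, with the TATA box (TATAAA, searched on the strand of the gene between 40 and 15 bases before the start) in capitals. It was present in ID1 and ID4, at 31 and 29 bases before the start, and in 2.30% of all 35116 promoters. The stretches lie at chr20:31605229-31605288 for ID1, chr2:8681996-8682055 for ID2, chr1:23559502-23559561 for ID3 (minus strand), and chr6:19837310-19837369 for ID4.
ID1: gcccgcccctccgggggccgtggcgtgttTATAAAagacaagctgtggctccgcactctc
ID2: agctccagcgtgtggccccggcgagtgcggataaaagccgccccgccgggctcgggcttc
ID3: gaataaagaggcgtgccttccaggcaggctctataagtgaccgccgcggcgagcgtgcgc
ID4: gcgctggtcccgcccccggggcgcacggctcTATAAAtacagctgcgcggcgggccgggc

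In GENCODE 44 (hg38), ID1 lies on chromosome 20 (31605283 to 31606515), ID2 on 2 (8678845 to 8684461), ID3 on 1 (23557926 to 23559501), and ID4 on 6 (19837370 to 19842197). ID1, ID3, and BAMBI overlap no other gene. ID2, ID4, ENG, GREM1, and BMP4 each overlap 1 gene on the opposite strand, and whether the counting used strand is not given in the sources used here, so reads of these pairs cannot be told apart. ID2-AS1, the partner of ID2, had at most 4.69 CPM, and GREM1-AS1, the partner of GREM1, had at most 4 CPM, a maximum above that of GREM1. The levels of the opposite-strand partners of ID4, ENG, and BMP4 were not examined. SMAD6, SMAD9, and ENG overlap genes on their own strand.

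The libraries held between 10756072 and 16953689 tags, and 0 tags in a library allow up to 3, or 0.177 to 0.279 CPM, an upper limit that covers counting error only. In log2(scaled CPM + 0.5), U251MG “WWOX” libraries 1 and 2 stood farthest from their group mean, with root mean square deviations of 0.638 and 0.676 against 0.218 to 0.514 in the libraries of the other groups. WWOX, the transduced gene, had 37.9 ± 3.48 CPM (SD, n = 3) in U87MG “Vec” and 62.7 ± 2.79 in “WWOX”, 43.3 ± 12.2 and 55.6 ± 9.17 in T98G, 33.5 ± 2.96 and 37.4 ± 19.7 in U251MG, and 21.3 ± 0.927 and 29.4 ± 2.25 in DBTRG-05MG. By limma its adjusted p was 0.108, 0.512, 1, and 0.744 in that order. In U87MG it was 0.0470 with DESeq2, and by limma 0.0329 or 0.0360 without U251MG “WWOX” library 1 or 2. Most other settings left it above the threshold in U87MG. A CAGE tag marks a start site, and a vector-driven transcript may start in vector sequence outside hg38, so WWOX tags check the labels only in part. The study reports a check of the transduction at the protein level by Western blot. Of the glioblastoma and glial markers, CD44 reached at least 678 CPM in every library, and VIM had 13.5 to 71.7 CPM. GFAP averaged 2655 CPM in U251MG “Vec” and 4.34, 1.99, and 2.01 CPM in U87MG, T98G, and DBTRG-05MG “Vec”. In the same order of “Vec” groups, SOX2 averaged 98.1, 0.0707, 0.360, and 47.0 CPM. NES averaged 94.0, 1.93, 0.185, and 38.9 CPM, and S100B 254, 0.506, 0.0987, and 8.88 CPM. Of the epithelial markers, the keratin KRT18 averaged 1037 CPM in DBTRG-05MG “Vec”, 277 in T98G, 65.5 in U251MG, and 0.174 in U87MG, while EPCAM did not exceed 0.914 CPM in any library. OLIG2 stayed at or below 3.57 CPM and the blood marker PTPRC at or below 0.0930 CPM.

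The ID genes were highest in U251MG and lowest in T98G when the “Vec” variants were compared. ID3 was the most abundant of them in every group and supplied between 58.6% (DBTRG-05MG “WWOX”) and 89.9% (T98G “WWOX”) of the summed ID1 to ID4 tags as group means; CAGE counts 5′ ends, so no correction for length enters this share. Summed over the 4 genes, the level was 2822 ± 281 CPM (SD, n = 3) in U251MG “Vec”, 645 ± 298 in DBTRG-05MG, 617 ± 287 in U87MG, and 302 ± 107 in T98G. The plot of levels by library shows U251MG “Vec” highest and T98G “Vec” lowest for these genes by group mean.

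**Figure D1:**
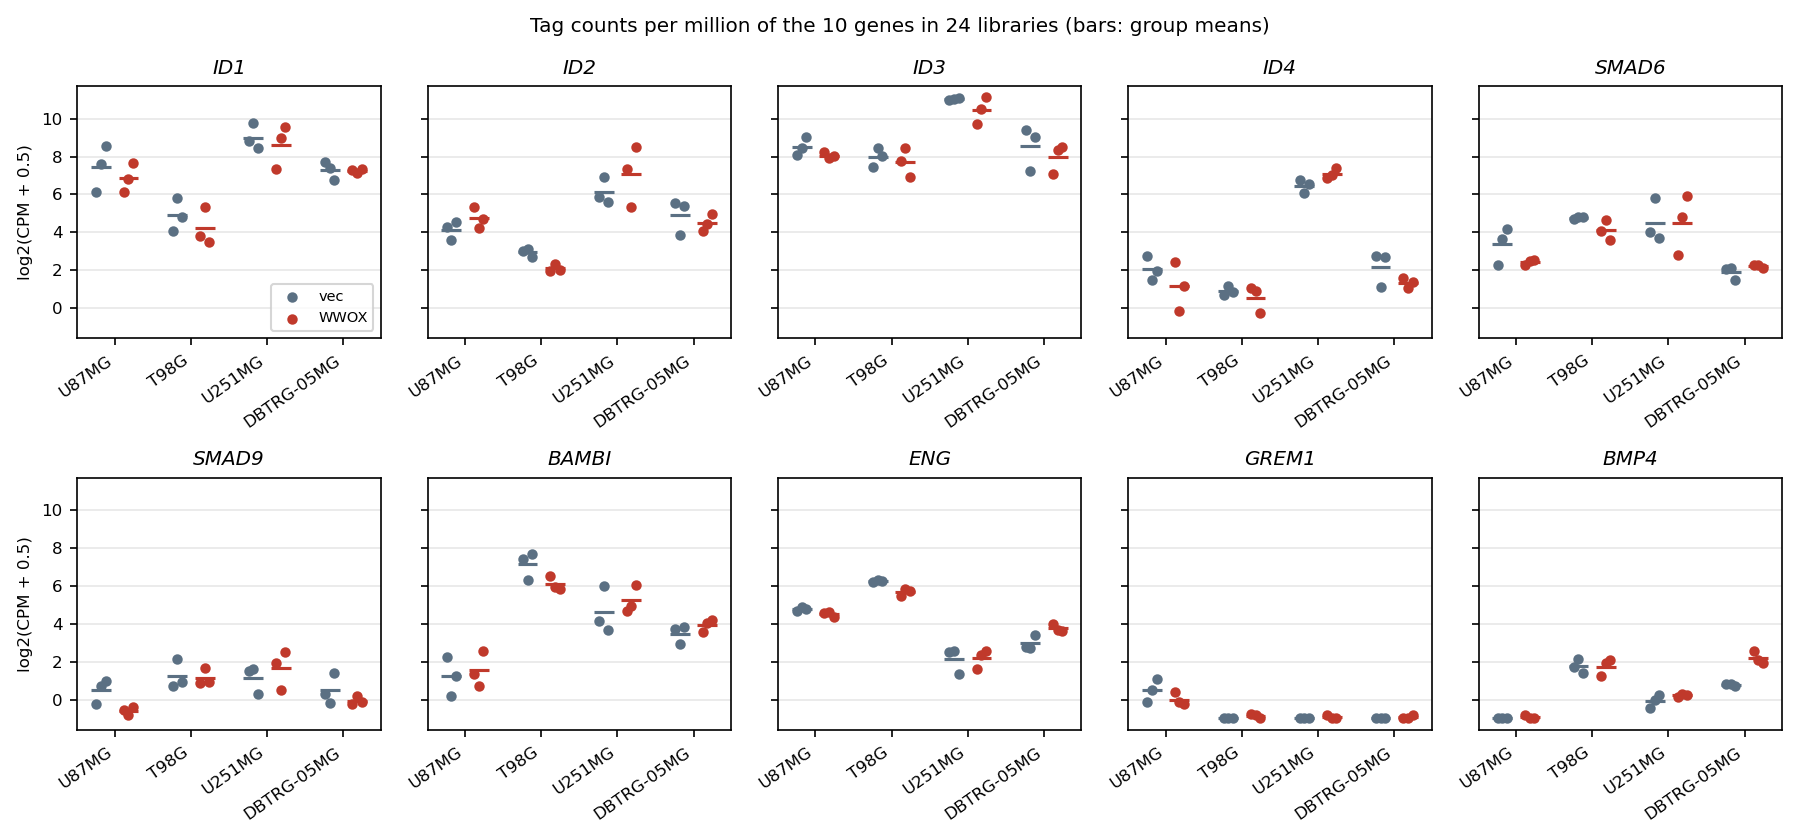
Level of each of the 10 genes as log2(CPM + 0.5) on the y axis, by line on the x axis, with 3 “Vec” (grey) and 3 “WWOX” (red) libraries as points and group means as bars. ID3 was highest as a group mean, GREM1 lay at the bottom of the scale in most libraries, and the 6 U251MG libraries of ID4 lie between 66.2 and 169 CPM, above all other libraries.

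ID3 gave the widest gap between U251MG and the rest in CPM. Its U251MG “Vec” libraries had 2051, 2099, and 2167 CPM, against 665, 153, and 519 in DBTRG-05MG, 272, 346, and 528 in U87MG, and 172, 344, and 264 in T98G. U251MG did not overlap the other lines, and these overlapped each other. The log2FC of U251MG “Vec” over DBTRG-05MG “Vec” was 2.55 (SE 0.494, adjusted p = 0.000337 by limma), and the neighbours below it in the order did not pass the threshold of 0.05 (adjusted p = 0.722 and 0.383).

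ID4, the ID protein of neural progenitors, was nearly absent outside U251MG. Its “Vec” libraries had 109, 66.2, and 92.4 CPM in U251MG, 6.28, 1.67, and 5.93 in DBTRG-05MG, 6.11, 2.24, and 3.37 in U87MG, and 1.12, 1.75, and 1.32 in T98G. The log2FC of U251MG over DBTRG-05MG was 4.31 (SE 0.510, adjusted p = 5.79e-07 by limma), the largest difference among the ID genes of neighbours in the order, and the lower 3 lines did not pass the threshold between neighbours.

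ID1, a direct target of the BMP SMADs, was also highest in U251MG and lowest in T98G by group mean. It had 447, 862, and 346 CPM in U251MG “Vec”, 70.6, 194, and 376 in U87MG, 209, 165, and 109 in DBTRG-05MG, and 16.1, 56.6, and 27.2 in T98G. T98G lay below every library of the other lines, with a log2FC of -2.15 (SE 0.628) against DBTRG-05MG “Vec” (adjusted p = 0.00874 by limma, and 0.0595 without T98G “Vec” library 1) and -3.92 (SE 0.628) against U251MG “Vec” (adjusted p = 3.40e-05). U251MG and U87MG did not pass the threshold (adjusted p = 0.0949), nor did U87MG and DBTRG-05MG (adjusted p = 0.619). In mean CPM, U87MG was above DBTRG-05MG for ID1 and below it for ID3 and ID4. On the scaled log2 values U87MG was above DBTRG-05MG for each of these genes (log2FC 0.42, 0.24, and 0.09, none past the threshold).

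ID2, which also binds the retinoblastoma protein, had 58.0, 119.6, and 48.4 CPM in U251MG “Vec”, 45.6, 14, and 42 in DBTRG-05MG, 18.7, 11.6, and 23.2 in U87MG, and 7.45, 8.33, and 5.99 in T98G. No step between neighbours in this order passed the threshold (adjusted p = 0.0530, 0.406, and 0.0505 by limma), while T98G was lower than U251MG with a log2FC of -3.00 (SE 0.487, adjusted p = 3.90e-05) and lower than DBTRG-05MG with a log2FC of -1.74 (SE 0.487, adjusted p = 0.00628).

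The receptor-level members BAMBI and ENG were highest in T98G, where the ID genes were lowest. BAMBI, the decoy receptor, had 172, 79.5, and 205 CPM in T98G “Vec”, 17.2, 64.5, and 12.4 in U251MG, 12.6, 7.15, and 13.5 in DBTRG-05MG, and 4.26, 0.618, and 1.89 in U87MG. T98G lay above the rest without overlap, with a log2FC of 2.72 (SE 0.592) over U251MG (adjusted p = 0.00103 by limma), and U87MG lay below the rest, with a log2FC of -2.03 (SE 0.592) against DBTRG-05MG (adjusted p = 0.00774, and 0.0625 without U87MG “Vec” library 2). U251MG and DBTRG-05MG overlapped and did not pass (adjusted p = 0.135).

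ENG, the co-receptor, had 72.4, 80.0, and 76.4 CPM in T98G “Vec”, 24.8, 29.4, and 26.8 in U87MG, 6.28, 6.12, and 10.3 in DBTRG-05MG, and 5.27, 5.33, and 2.08 in U251MG. The lines did not overlap. T98G exceeded U87MG by a log2FC of 1.47 (SE 0.301, adjusted p = 0.000438 by limma), and U87MG exceeded DBTRG-05MG by 2.07 (SE 0.301, adjusted p = 6.72e-06), while DBTRG-05MG and U251MG did not pass (adjusted p = 0.0578). Since ENG marks endothelial cells, 6 further endothelial markers (PECAM1, CDH5, VWF, KDR, TEK, and CLDN5) were read beside it. Summed, they had 0.389 to 0.773 CPM in T98G “Vec”, where ENG was highest, and 4.35 to 9.65 CPM in U251MG “Vec”, where it was lowest. PECAM1, VWF, and CLDN5 did not exceed 0.232, 0.330, and 0.201 CPM in any library, and TEK did not exceed 0.695. KDR and CDH5 carried the sum, with up to 6.22 and 13.2 CPM. CDH5 averaged 2.84 CPM in U251MG “Vec” and 8.26 in U251MG “WWOX”, and KDR averaged 4.65 CPM in U251MG, 3.65 in U87MG, 2.22 in DBTRG-05MG, and 0.0259 in T98G “Vec”.

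The inhibitory SMAD6 had 15.6, 55.9, and 12.5 CPM in U251MG “Vec”, 25.7, 27.1, and 27.2 in T98G, 4.33, 12.1, and 17.4 in U87MG, and 3.73, 3.80, and 2.31 in DBTRG-05MG. DBTRG-05MG was below the other lines, with a log2FC of U87MG over DBTRG-05MG of 1.71 (SE 0.597, adjusted p = 0.0236 by limma). Without U87MG “Vec” library 2, library 3, or DBTRG-05MG “Vec” library 3 this call was lost (adjusted p = 0.0823, 0.110, and 0.0951). The higher 3 lines did not pass the threshold between neighbours (adjusted p = 0.624 and 0.0697).

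SMAD9, a SMAD phosphorylated by BMP receptors, averaged between 0.996 CPM (U87MG) and 2.16 CPM (T98G) in “Vec”, and no pair of lines passed the threshold (lowest adjusted p = 0.0991). BMP4, the ligand, had 2.74, 3.95, and 2.18 CPM in T98G “Vec”, 1.24, 1.29, and 1.12 in DBTRG-05MG, 0.243, 0.477, and 0.670 in U251MG, and 0 tags in all 3 U87MG libraries. T98G exceeded DBTRG-05MG by a log2FC of 1.17 (SE 0.231, adjusted p = 0.000309 by limma), and DBTRG-05MG exceeded U251MG by 0.80 (SE 0.231, adjusted p = 0.0105, and 0.0695 without U251MG “Vec” library 1). U251MG, with 3, 6, and 10 tags, differed from U87MG (adjusted p = 0.00390 by limma, with no fold given against libraries at 0), and its lowest library lies at the limit that 0 tags allow. GREM1 was detected only in U87MG beyond 1 tag a library, with 0.426, 0.927, and 1.61 CPM in “Vec” and 0.795, 0.407, and 0.339 in “WWOX”, and it was not tested.

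Of the 9 genes tested, 4 differed between U87MG and T98G “Vec” (39.8% of all 12327 genes tested did), 6 between U87MG and U251MG (38.9%), 4 when U87MG was set against DBTRG-05MG (44.1%), 7 between T98G and U251MG (32.4%), and 6 between T98G and DBTRG-05MG (41.0%). For U251MG against DBTRG-05MG it was 5 (31.6%). Lines differ in a large share of genes, and the counts of 4 of 9 are close to that share. SMAD9 and BMP4 entered the test through 1 library each, with 5.21 CPM for SMAD9 in a U251MG “WWOX” library and 5.43 CPM for BMP4 in a DBTRG-05MG “WWOX” library, against a minimum of 5 CPM.

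WWOX transduction was followed by few differences in these genes that exceeded the spread between libraries. “WWOX” and “Vec” differed at an adjusted p under 0.05 in 0 of 9 genes in U87MG (3.20% of all genes tested) by limma, 0 for T98G (1.14%), 0 for U251MG (0.308%), and 1 for DBTRG-05MG (1.03%). At such shares a count of 0 or 1 among 9 genes says little about the set. At an unadjusted p under 0.05 the counts were 1, 0, 0, and 2, beside 1414, 1405, 1432, and 935 of all 12327 genes. For the mean of the 4 lines, 0 of 9 passed (1.73% of all genes). At an unadjusted p under 0.05, 1 did so for the mean, beside 1888 of all genes. DESeq2, edgeR, and limma-voom also called 0 of the 9 in U87MG, T98G, and U251MG and for the mean of the lines. The 9 genes had a median log2FC of -0.53 for U87MG, -0.56 for T98G, 0.31 for U251MG, and -0.11 for DBTRG-05MG, beside -0.04 to 0.01 over all genes in the 4 lines.

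**Figure D2:**
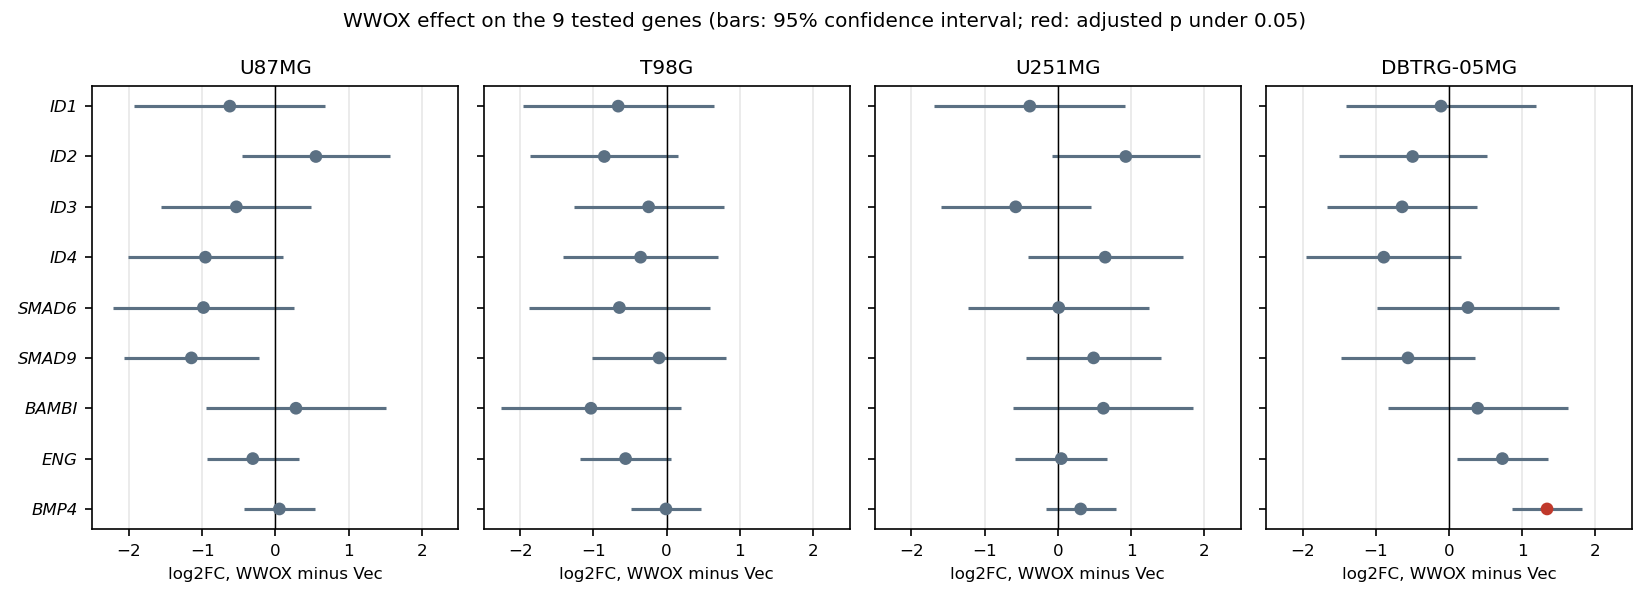
Log2FC of “WWOX” minus “Vec” on the x axis for the 9 genes tested, by line, with 95% confidence intervals as bars. BMP4 in DBTRG-05MG, at 1.34, is the only red point (adjusted p under 0.05), and most other intervals span 0.

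For the ID genes, the 95% intervals left room for changes in either direction. ID1 “WWOX” libraries had 70.2, 113, and 199 CPM in U87MG, 13.6, 40.6, and 10.8 in T98G, 160.0, 501, and 742 in U251MG, and 153, 139.9, and 159.7 in DBTRG-05MG. They overlapped “Vec” in every line, and the log2FC ran from -0.66 in T98G (95% interval -1.97 to 0.64) to -0.11 in DBTRG-05MG (-1.41 to 1.19). In U251MG it was -0.38, and 0.36 without “WWOX” library 1. The mean over the lines was -0.44 (SE 0.314, adjusted p = 0.521 by limma).

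ID3 was below “Vec” on average in all 4 lines, without passing the threshold in any. Its “WWOX” libraries had 297, 240.2, and 257 CPM in U87MG, 214, 355, and 121 in T98G, 857, 1463, and 2224 in U251MG, and 136, 324, and 359 in DBTRG-05MG. The log2FC was -0.53, -0.25, -0.57, and -0.64 in that order, and the mean was -0.50 (SE 0.247, unadjusted p = 0.0561, adjusted p = 0.342 by limma). The U251MG “WWOX” libraries with 857 and 1463 CPM are the 2 that stood apart, and with both left out the log2FC there was -0.15. Without T98G “WWOX” library 3 the T98G value was 0.18.

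ID2 gave differences of either sign. Its “WWOX” libraries had 3.35, 4.53, and 3.50 CPM in T98G, all below “Vec”, and 39.6, 18, and 25.7 in U87MG. In U251MG they had 159.7, 40.2, and 359.9 CPM, the widest spread of any group for this gene, and in DBTRG-05MG 16.4, 21.2, and 30.6. The log2FC was 0.55 for U87MG, -0.85 for T98G, 0.93 for U251MG, and -0.50 for DBTRG-05MG, with adjusted p of 0.856, 0.536, 0.479, and 0.939 by limma. The F test of the difference between the 4 lines gave an adjusted p of 0.351 by limma. A setting added after seeing the data left out U251MG “WWOX” libraries 1 and 2. It kept only library 3 of that group, the highest library for ID2 (359.9 CPM), and the U251MG log2FC there was 2.14.

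ID4 “WWOX” libraries had 116, 129, and 169 CPM in U251MG, each above the highest “Vec” library in deposited CPM, with a log2FC of 0.65 (SE 0.510, adjusted p = 0.687 by limma). On the scaled values this separation was lost. In the lines where ID4 was low, “WWOX” had 4.83, 0.407, and 1.78 CPM in U87MG (log2FC -0.96, adjusted p = 0.526), 1.58, 1.34, and 0.330 in T98G (-0.35, adjusted p = 0.857), and 2.54, 1.56, and 2.06 in DBTRG-05MG (-0.89, adjusted p = 0.773).

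Among the feedback inhibitors, SMAD6 had 4.34, 5.09, and 5.34 CPM in U87MG “WWOX” (log2FC -0.98, adjusted p = 0.632 by limma), 16.4, 24.7, and 11.6 in T98G (-0.65, adjusted p = 0.744), 6.58, 27.1, and 60.5 in U251MG (0.01, adjusted p = 1), and 4.25, 4.41, and 3.77 in DBTRG-05MG (0.26, adjusted p = 0.987). In T98G every “WWOX” library lay below every “Vec” library in deposited CPM. BAMBI had 91.7, 61.0, and 56.9 CPM in T98G “WWOX”, where 1 “Vec” library fell within this range, and its log2FC was -1.03 (SE 0.592, unadjusted p = 0.0950, adjusted p = 0.536). In the other lines the log2FC of BAMBI was 0.28, 0.62, and 0.39, with intervals that span 0.

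SMAD9 had 5, 15, and 21 tags in U87MG “Vec” and 3, 1, and 3 in U87MG “WWOX”. The groups did not overlap, the unadjusted p was 0.0167 and the adjusted p was 0.240 by limma, and no fold change is given at so few tags. In T98G, U251MG, and DBTRG-05MG its log2FC was -0.10, 0.49, and -0.56, none past the threshold.

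BMP4 was the only member called, in DBTRG-05MG, and it entered the test only through 1 “WWOX” library of that line. In DBTRG-05MG it had 1.24, 1.29, and 1.12 CPM (19, 20, and 17 tags) in “Vec” and 5.43, 3.82, and 3.29 CPM (92, 59, and 48 tags) in “WWOX”. Every “WWOX” library exceeded every “Vec” library, with means of 1.22 ± 0.0872 and 4.18 ± 1.11 CPM (SD, n = 3). On the log2(scaled CPM + 0.5) scale the log2FC was 1.34 (SE 0.231, 95% interval 0.859 to 1.82), with an adjusted p of 0.00234 by limma. In T98G the “WWOX” libraries had 1.86, 3.27, and 3.70 CPM, which overlapped “Vec” (log2FC -0.01), in U251MG 0.617, 0.715, and 0.676 CPM (log2FC 0.31, adjusted p = 0.661), and in U87MG 1 tag in all.

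BMP4 entered the test only through the “WWOX” library with 5.43 CPM, so it had to be high there to be tested. Without any filter the log2FC was 1.34 (adjusted p = 0.00264). With that library left out and no filter the log2FC was 1.19 (adjusted p = 0.0158), and with the filter BMP4 was no longer tested. With a separate model for DBTRG-05MG the adjusted p was 0.0511, and with edgeR it was 0.0820.

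**Figure D3:**
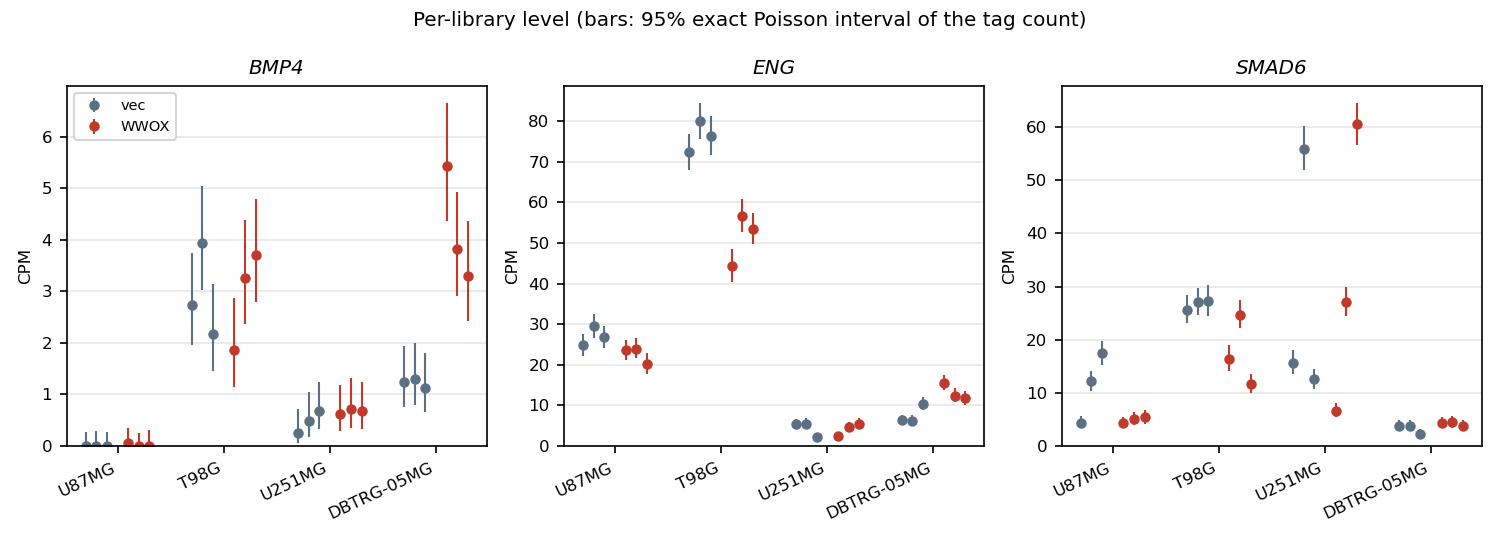
CPM of BMP4, ENG, and SMAD6 on the y axis by line on the x axis, with “Vec” (grey) and “WWOX” (red) libraries as points and exact 95% Poisson intervals of the tag count as bars. In DBTRG-05MG the BMP4 “WWOX” libraries sit between 3.29 and 5.43 CPM, above “Vec” at 1.12 to 1.29 CPM, and the ENG “WWOX” libraries lie above “Vec” there and below it in T98G, differences that did not pass the test.

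The change of BMP4 in DBTRG-05MG was larger than the mean of the other lines by a log2FC of 1.22 (SE 0.267, adjusted p = 0.0212 by limma), and it was the only 1 of the 9 genes to pass (0.998% of all genes did). This call ended with limma-voom, edgeR, and DESeq2 (adjusted p = 0.242, 1, and 0.823), with a pseudocount of 0.1 (adjusted p = 0.174), and without DBTRG-05MG “Vec” library 1 or 3 (adjusted p = 0.0608 and 0.0917). It was also the only 1 of the 9 whose effect differed between the 4 lines in an F test (adjusted p = 0.0450 by limma, where 3.50% of all genes passed). In the model over all 8 groups, 1 estimate of spread is shared. U87MG had 0 BMP4 tags in each “Vec” library and at most 1 in “WWOX”. It could thus show little change, and it added almost no spread to that estimate. Without a filter the adjusted p of the F test was 0.0595, and with limma-voom, edgeR, and DESeq2 it was 0.547, 0.287, and 0.228. Leaving out 1 library at a time ended its call in 18 of 24 cases.

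ENG gave differences of opposite sign in T98G and DBTRG-05MG, neither past the threshold. In T98G “WWOX” it had 44.3, 56.7, and 53.5 CPM, all below “Vec”, with a log2FC of -0.56 (SE 0.301, adjusted p = 0.499 by limma). In DBTRG-05MG “WWOX” it had 15.5, 12.4, and 11.7 CPM, all above “Vec”, with a log2FC of 0.73 (SE 0.301, unadjusted p = 0.0245, adjusted p = 0.501). In U87MG it had 23.5, 24.0, and 20.2 CPM, all below “Vec” (log2FC -0.31, adjusted p = 0.894), and in U251MG 2.54, 4.65, and 5.48 CPM, which overlapped “Vec”. DBTRG-05MG minus the mean of the other lines was 1.00 (SE 0.348), with an unadjusted p of 0.00879 and an adjusted p of 0.310. The endothelial markers summed to 2.25 to 3.29 CPM in DBTRG-05MG “Vec” and 1.51 to 2.01 CPM in “WWOX”, and their range in T98G was 0.389 to 0.773 and 0.0930 to 0.660 CPM. A link between these sums and ENG was not tested.

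On the scaled values, “Vec” and “WWOX” did not overlap for 3 of the 9 genes in U87MG (ID3, SMAD9, and ENG, all lower in “WWOX”), where 17.2% of all genes did not overlap. They did not overlap for 2 in T98G (ID2 and ENG, both lower), against 16.2%, for 1 in U251MG (ID3, lower), against 10.5%, and for 2 in DBTRG-05MG (ENG and BMP4, both higher), against 19.8%. These counts lie near the share of all genes. On the deposited CPM the genes were SMAD9 and ENG in U87MG (16.7% of all genes), ID2, SMAD6, and ENG in T98G (16.2%), ID4, higher, in U251MG (9.45%), and ENG and BMP4 in DBTRG-05MG (19.3%).

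The rest of the pathway gave few calls as well. Of 10 bHLH partners of the ID proteins, 4 were tested, and 0 passed in any line; TCF12, the most abundant of those tested and a dimer partner of tissue bHLH factors, had a log2FC between -0.31 (T98G) and 0.58 (U251MG). Of 12 BMP ligands, 5 were tested, and BMP4 in DBTRG-05MG was the only 1 to pass; BMP7, the most abundant of the other ligands tested, had a log2FC of -0.82 there (SE 0.243, adjusted p = 0.160 by limma, and 0.0339 without DBTRG-05MG “Vec” library 2). Of 13 receptors and co-receptors, 10 were tested and 0 passed; RGMB, a BMP co-receptor, had a log2FC of 0.85 in U251MG (SE 0.228, adjusted p = 0.121, and 0.0409 without U251MG “WWOX” library 2).

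Of 8 BMP SMADs and their inhibitors, 7 were tested, and 1 passed. SMURF2, a ubiquitin ligase that degrades SMADs and receptors, fell in T98G from 38.7 ± 11.2 CPM (SD, n = 3) to 17.2 ± 4.37, with a log2FC of -1.13 (SE 0.232, adjusted p = 0.0147 by limma); without T98G “Vec” library 1 or “WWOX” library 3 the adjusted p was 0.0793 and 0.142, with CPM as deposited it was 0.0748, and with a separate model for the line 0.234. Of 10 other BMP target genes, 7 were tested, and ATOH8, a bHLH factor induced by BMP, fell in U87MG from 2.46 ± 1.08 to 0.353 ± 0.116 CPM (log2FC -1.81, SE 0.486, adjusted p = 0.0404), a call that ended in 11 of 24 cases when 1 library was left out (adjusted p up to 0.210) and with a pseudocount of 1, no filter, and limma-voom (adjusted p = 0.0913, 0.0695, and 0.0910). Of 15 genes listed as secreted BMP antagonists, 9 were tested, and SOST (sclerostin) rose in T98G from 6.48 ± 6.75 to 22.1 ± 6.66 CPM (log2FC 2.17, SE 0.381, adjusted p = 0.00368). Whether SOST acts on BMP signaling in these cells was not tested. With a separate model, edgeR, and DESeq2 the adjusted p for SOST was 0.311, 0.266, and 0.884. SOST was listed at 0 in every U251MG and DBTRG-05MG library.

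Of 14 genes of the related TGF-beta arm, all 14 were tested. In U87MG 3 of them passed (3.20% of all genes did), and in T98G 1 passed (1.14%). In U87MG, SMAD2, which carries the TGF-beta signal, rose from 16.3 ± 3.07 to 38.5 ± 7.09 CPM (SD, n = 3; log2FC 1.17, SE 0.232, adjusted p = 0.00348 by limma), while the ligand TGFB3 fell from 8.37 ± 3.51 to 2.68 ± 0.307 (log2FC -1.47, adjusted p = 0.0285). In T98G, LTBP1, which anchors latent TGF-beta in the matrix, fell from 4.29 ± 1.58 to 0.900 ± 0.272 CPM (log2FC -1.77, adjusted p = 0.0262). The call of SMAD2 held with each library left out, while those of TGFB3 and LTBP1 ended in 5 and 4 of 24 cases (adjusted p up to 0.238 and 0.218). Both also ended with CPM as deposited (adjusted p = 0.0739 and 0.0699), separate models (0.137 and 0.166), and limma-voom (0.132 and 0.141), that of TGFB3 with a pseudocount of 0.1, no filter, and edgeR (0.128, 0.0546, and 0.0834), and that of LTBP1 with a pseudocount of 1 (0.0606). In U251MG and DBTRG-05MG 0 of the 14 passed, with 2 and 1 at an unadjusted p under 0.05, beside 1432 and 935 of all 12327 genes. The medians of the 8 lists lay between -0.58 (ID genes in U87MG) and 0.56 (receptors in U251MG).

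Libraries of the same group differed in ID1 and SMAD6 together. Taken as deviations from the group mean on the scaled log2 values, ID1 and SMAD6 had a Pearson correlation of 0.83 (Spearman 0.81) over the 24 libraries and deviated to the same side in 19 of 24. Without the 3 U251MG “WWOX” libraries it was 0.77 (n = 21), and without the 2 libraries farthest from the median of ID1 it was 0.73 (n = 22). In U251MG “WWOX”, for example, libraries 1, 2, and 3 had scaled log2 values of 7.07, 9.33, and 9.24 for ID1. For SMAD6 they had 2.58, 5.14, and 5.63, so library 1 was lowest for both genes, while libraries 2 and 3 stood in opposite order. Points from 1 library share its depth and scaling, and the correlation is given as a description with no p.

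ID1 and ID3 had a correlation of 0.55 (0.43 without the U251MG “WWOX” libraries), whereas ID1 and ID2 had 0.07. SMAD6 and ENG had 0.58, which fell to 0.31 without the U251MG “WWOX” libraries, and ID2 and SMAD9 had 0.57, which fell to 0.40.

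**Figure D4:**
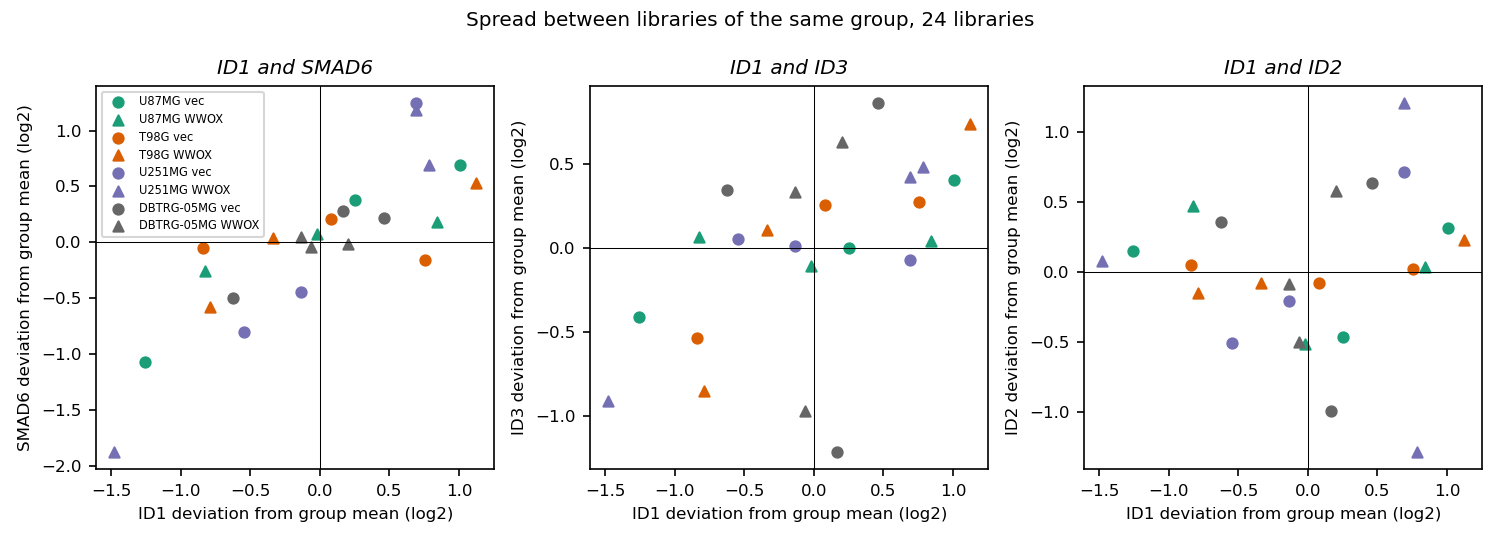
Deviation of ID1 from its group mean (x axis, log2) against the deviation of SMAD6, ID3, or ID2 (y axis, log2) in 24 libraries, with color for the line and shape for the variant. ID1 and SMAD6 lie along 1 diagonal (r of 0.83), and ID1 and ID2 do not (r of 0.07).

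With deviations taken from the line mean, the genes most like ID1 among all those tested were CDC25A (r = 0.85), TEDC2 (0.83), and SMAD6 (0.83). For ID2 they were WDR47 (0.83), TMEM64 (0.83), and ZNF718 (0.81), for ID3 APOO (0.79), TPI1 (0.78), and IDH2 (0.78), and for ID4 PPP2CB (0.67), ACSS1 (0.66), and CXCL3 (0.65), all over 24 libraries. SMAD6 was the only 1 of the 10 genes that appeared among them.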

How the data were processed

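CAGE reads had been mapped with STAR (hg38) and tags summed by gene, and the authors deposited CPM, each value scaled to a total of 1000000 per library. Per the submitters' processing notes limma 3.42 was used, and the gene annotation is not given in the sources used here. All 24 columns were used (0 left out). Whole tags were recovered from the CPM (100.0% of values within 0.02 of a whole number). CPM were scaled by unweighted TMM factors (0.778 to 1.23), 0.5 was added, and limma was run on the log2 values of the 12327 genes that reached 5 CPM in any library (trend, 8 groups, 16 residual degrees of freedom, two-sided, Benjamini-Hochberg over all genes, threshold 0.05). A log2FC on this scale understates the change of low genes. Log2FC is “WWOX” minus “Vec”, or the first line minus the second.

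The members and lists were chosen with earlier results of these data known. All members were named, together with genes of each list that passed in a line (otherwise its most abundant tested gene), the 3 genes most like each ID gene, and WWOX, except for a list gene that is not reported here. RefSeq starts and sequences (hg38) were matched for all 10 members, and gene positions are from GENCODE 44. The procedure was tested on simulated counts. Python 3.11.15 and R 4.3.3 were used with edgeR 4.0.16, DESeq2 1.42.0, and limma 3.58.1.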

Additional observations from a re-analysis of the deposited data

Results flagged for a closer look

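BMP4 is listed because a test of the difference in its WWOX effect between lines passed the threshold by limma. It was tested only because 1 DBTRG-05MG “WWOX” library reached the minimum of 5 CPM, in the group where it is high. The F test over the 4 lines gave an adjusted p of 0.0450, but 0.0595 without a filter and 0.547, 0.287, and 0.228 with limma-voom, edgeR, and DESeq2, and DBTRG-05MG minus the mean of the other lines was a log2FC of 1.22 (adjusted p = 0.0212 by limma, and 0.242, 1, and 0.823 with the same 3 tools). BMP4 had at most 92 tags in a library. In U87MG it had at most 1, so that line added almost no spread to the shared estimate.

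ENG is listed because every “WWOX” library lay on 1 side of “Vec” in 3 lines, with opposite signs. Its log2FC was 0.729 in DBTRG-05MG, -0.560 in T98G, and -0.308 in U87MG. The test of the difference between the 4 lines missed the threshold (adjusted p = 0.284 by limma), as did that of DBTRG-05MG against the mean of the other lines (adjusted p = 0.310).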

How the results depend on the processing

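There were 11 alternatives besides leaving out each of the 24 libraries in turn, and 2 were added after seeing the data. Of 3930 recomputed log2FC of members, 0 reversed a called direction, 23 lost and 46 gained a call, and 66 uncalled values changed sign. These counts leave out the F test, which gives no log2FC, and every setting in which a member was no longer tested. BMP4 with a mean of at least 5 CPM is such a case, so the 23 understate how often its calls ended.

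For DBTRG-05MG, the count of 1 member (BMP4) became 0 with a mean of at least 5 CPM, where BMP4 was not tested, with a separate model per line, and with edgeR, and it was 0 to 1 with a library left out (0 without “WWOX” library 1). For DBTRG-05MG minus the other lines it became 0 with a pseudocount of 0.1, a mean of at least 5 CPM, limma-voom, edgeR, and DESeq2, and with “WWOX” library 1 left out and no filter. Leaving out a library gave 0 to 1 (0 without “Vec” library 1 or 3 or “WWOX” library 1). For the difference between the 4 lines it became 0 with no filter, a pseudocount of 0.1, a mean of at least 5 CPM, limma-voom, edgeR, DESeq2, and DBTRG-05MG “WWOX” library 1 left out with no filter. With U251MG “WWOX” libraries 1 and 2 left out, the lone library of that group is assumed to vary like the other groups, so no count is given. The count for the difference between the 4 lines was 0 to 1 with a library left out, with the call kept in 6 of 24 cases. These were without T98G “Vec” 2, T98G “WWOX” 1 or 3, U251MG “Vec” 1, or U251MG “WWOX” 1 or 2. For the mean of the 4 lines the range was 0 to 1, with BMP4 called without T98G “Vec” library 2 or “WWOX” library 1 (adjusted p = 0.0395 and 0.0254 by limma).

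Among the “Vec” comparisons, U87MG against T98G gave 7 members in place of 4 when only “Vec” libraries were fitted. Over all 12327 genes that setting gave 5261 in place of 4901. U251MG against DBTRG-05MG gave 8 members in place of 5 with DESeq2, and 4269 genes in place of 3894. U87MG against DBTRG-05MG gave 2 to 4 members with a library left out (2 without U87MG “Vec” library 2), and 4555 to 6056 genes in place of 5433. All other member counts stayed within 1.5 times. Over all genes, the calls in U87MG, T98G, U251MG, and DBTRG-05MG (395, 141, 38, and 127) became 618, 271, 114, and 395 without a filter, 200, 76, 15, and 49 with a mean of at least 5 CPM, and 214, 0, 3, and 37 with separate models. A pseudocount of 0.1 gave 24 in U251MG and 75 in DBTRG-05MG, edgeR gave 14 and 49 there, limma-voom gave 23 in U251MG, and DESeq2 gave 273 in T98G and 162 in U251MG. The calls for the mean, for DBTRG-05MG minus the other lines, and for the F test (213, 123, and 432) became 385, 332, and 833 without a filter and 96, 44, and 173 with a mean of at least 5 CPM. With edgeR the mean gave 101 and DBTRG-05MG minus the other lines 29, and with DESeq2 the F test gave 802. With a library left out, U87MG gave 243 to 482 calls, T98G 44 to 383, U251MG 13 to 564, and DBTRG-05MG 73 to 148 (lowest without U87MG “Vec” 2, T98G “WWOX” 3, U251MG “Vec” 3, and DBTRG-05MG “Vec” 1). The mean gave 155 to 744, DBTRG-05MG minus the other lines 81 to 146, and the F test 302 to 646. The highest counts in U251MG and for the mean came without U251MG “WWOX” 2, and that in T98G without T98G “Vec” 2.

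Correlations of same-numbered libraries ran from -0.546 to 0.510 and were all negative in DBTRG-05MG. Libraries with different numbers were not compared, so these values cannot show whether the numbers pair the libraries. With the replicate number as a block, the F test's call of BMP4 ended (0 members, adjusted p = 0.0651), ID2 passed between U87MG and T98G and between U251MG and DBTRG-05MG “Vec” (adjusted p = 0.0457 and 0.0485 by limma), and the F test called 358 genes in place of 432. A separate model per line gives no value for the mean, for differences between lines, or for the F test.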
